A study of Homo sapiens with 10 samples.

Results

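The genes described here encode the aminoacyl-tRNA synthetases, followed in the human ovarian cancer line PEO1 and in 4 clones of it that had become resistant to veliparib. They were chosen by name, as the genes of the cytosolic enzymes and of the mitochondrial enzymes whose symbol carries the ending 2, which gave 37 members (21 cytosolic and 16 mitochondrial) among the 25370 genes of the count table. FARS2, the mitochondrial phenylalanine enzyme, was not picked up by the naming rule although it is in the table. It had 8.97 to 12.5 CPM (counts scaled to a common library total) in the clone libraries, against 12.7 and 14.6 CPM in PEO1.

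An aminoacyl-tRNA synthetase joins an amino acid to its matching tRNA, and so supplies the ribosome with charged tRNAs. Most amino acids have a cytosolic enzyme and a separate mitochondrial one encoded by a different nuclear gene, while GARS and KARS each serve both compartments. Several cytosolic enzymes sit together in the multisynthetase complex, and a group of the cytosolic genes is known to be switched on by the stress-response factor ATF4 when amino acids are scarce. The series is about readthrough of stop codons in BRCA2 as a route to resistance. Charged tRNAs are what the ribosome draws on at every codon for an amino acid.

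PEO1 is an epithelial ovarian cancer line. The resistant clones, named ABTr1, ABTr2, ABTr3 and ABTr4, are 4 derivatives of PEO1 kept in 40 µM veliparib, an inhibitor of PARP enzymes, for 6 months and taken off the drug 4 to 5 days before RNA was collected, whereas the parental PEO1 cells had no drug. All groups grew in the same medium, with added nonessential amino acids, glutamine and insulin. Polyadenylated RNA was sequenced from 2 libraries per group, 10 in all, and every clone is 1 line, so that clone and treatment history cannot be told apart. The labels do not say whether the 2 libraries of a group were separate cultures, and p-values therefore measure the spread between libraries, which may be technical.

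Total counts per library lay between 20640602 and 55488566, and the 37 members took 0.366% to 0.574% of them, most in PEO1 replicate 2. Serous epithelial markers fitted the label in PEO1, and PAX8, a lineage factor of this tissue, was at 95.2 to 200.1 CPM in the clones, against 156 and 92.6 CPM in PEO1. The summed level of 6 such markers was 1431 to 2089 CPM in the clone libraries, against 5054 and 6345 CPM in PEO1, and 5 of the 6 fell, EPCAM, KRT18, MUC16 and KRT8 among them. The fibroblast markers DCN, LUM and COL3A1 had 0 counts in every library, while COL1A1 was at 1.80 to 15.7 CPM in the clones, against 8.16 and 8.47 CPM in PEO1, and PDGFRB, at 0.134 to 1.48 CPM in the clones, against 0.124 and 0.155 CPM in PEO1, rose with the replicate block. The 4 leukocyte markers summed to 1.96 to 17.5 CPM in the clones, against 8.46 and 18.5 CPM in PEO1. The 3 endothelial markers summed to 0.968 to 15.3 CPM in the clones, against 15.2 and 62.3 CPM in PEO1, and CDH5 fell. The 3 mesothelial markers summed to 40.8 to 185 CPM in the clones, against 87.7 and 222 CPM in PEO1, and UPK3B fell. The part of these marker differences in the results on synthetases was not tested.

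Across the 4 clones, 8 of the 37 synthetase genes fell relative to PEO1 and 0 rose. The cytosolic enzymes for asparagine (NARS), methionine (MARS), serine (SARS), leucine (LARS), glutamate and proline (EPRS) and arginine (RARS) fell, and so did the mitochondrial enzymes for tryptophan (WARS2) and isoleucine (IARS2). The fall was largest for NARS, whose log2 fold change of -1.39 ± 0.20 (SE) is a level 0.383 times that of PEO1. The test was edgeR's quasi-likelihood test of the mean of the 4 clones against PEO1, with p-values adjusted over all 16490 genes tested and a threshold of 0.05. All 37 members passed the filter on low counts. No member was higher at an unadjusted p under 0.05 in this fit, and DESeq2 and limma-voom also called 0 members higher. Among all genes tested, 8.79% fell and 7.17% rose in this comparison. The median log2 fold change was -0.54 over the 21 cytosolic members and -0.28 over the 16 mitochondrial ones, against 0.02 over all genes tested.

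Same-numbered libraries deviated together in all 10 pairs of groups, and the replicate numbers were on that basis taken to pair libraries across groups. A fit that takes the replicate number as a block called 17 members lower and 0 higher, with 18.2% of all tested genes lower and 16.3% higher. At an unadjusted p under 0.05, 2 members were higher in that fit. These 17 comprised the same 8 genes and 9 more, among them YARS, WARS, FARSA, HARS and GARS of the cytosolic enzymes and CARS2, MARS2 and HARS2 of the mitochondrial ones. In that fit the calls covered 11 of 21 cytosolic and 6 of 16 mitochondrial members. In the fit without the block, NARS was the 1 member that passed when PEO1 replicate 2, the library with the highest share of synthetase counts, was left out. The count was 9 without PEO1 replicate 1 and 5 without either library of ABTr1.

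**Figure D1:**
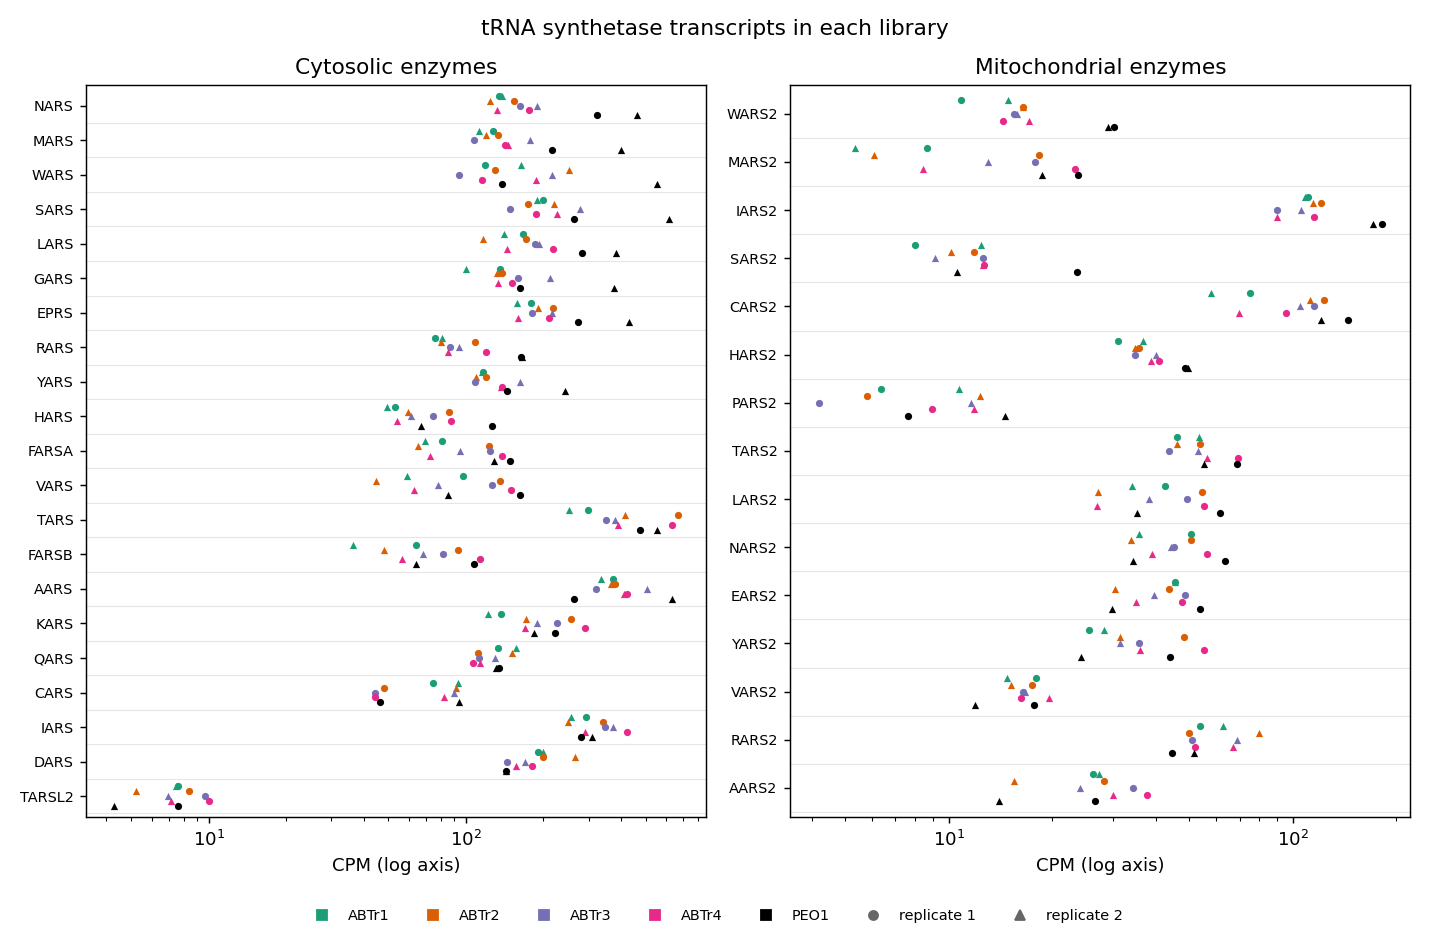
Level of 36 of the 37 synthetase genes in CPM, on a log axis, in the 8 libraries of the clones (colours) and the 2 of PEO1 (black), with circles for replicate 1 and triangles for replicate 2. For NARS, both PEO1 points (322 and 464 CPM) lie to the right of all clone points (124 to 189 CPM), while for AARS the PEO1 points lie on either side of them.

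**Figure D2:**
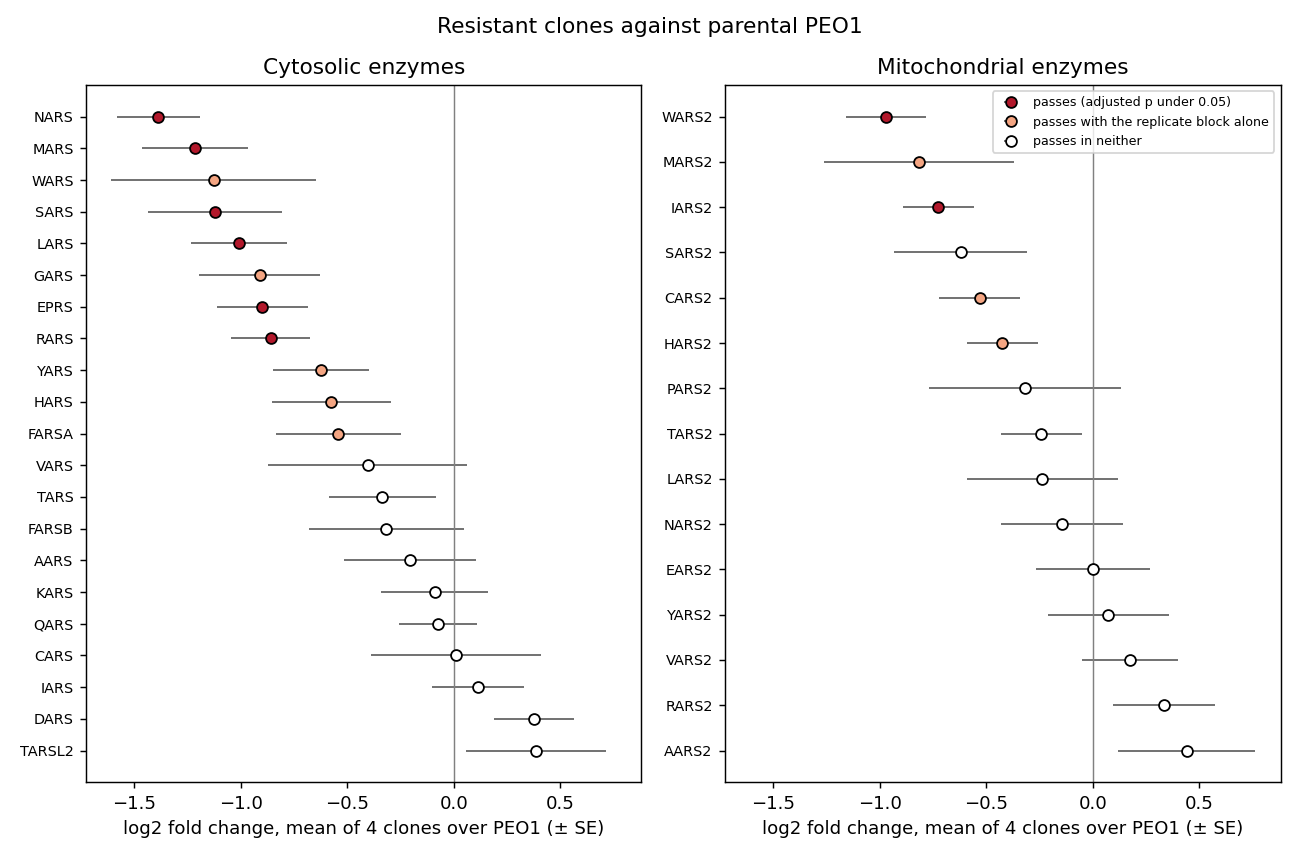
Log2 fold change of the mean of the 4 clones over PEO1 with its SE, for 36 members. Dark points passed at an adjusted p under 0.05 (8 genes), light points passed in the fit with the replicate block but not in the one without (8 of those shown), and open points passed in neither.

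NARS (chr18:55267894-55289177, hg19), which charges the tRNA of asparagine, had 134 and 138 CPM in ABTr1, 154 and 124 CPM in ABTr2, 162 and 189 CPM in ABTr3 and 175 and 133 CPM in ABTr4, against 322 and 464 CPM in PEO1. All 8 clone libraries lay below both PEO1 libraries, and the highest clone library was far from the lower PEO1 one. The adjusted p was 0.00266 in edgeR's test and 0.000234 with the replicate block. Per kb of exon, NARS was at 52.8 CPM per kb in the clones, the eighth highest of the 35 members ranked, against 137 CPM per kb in PEO1, the second highest.

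Methionine is charged by MARS (chr12:57881736-57910438), which also loads the initiator tRNA. It had 127 and 112 CPM in ABTr1, 134 and 120 CPM in ABTr2, 108 and 177 CPM in ABTr3 and 142 and 146 CPM in ABTr4, against 217 and 401 CPM in PEO1. The groups did not overlap, and PEO1 replicate 2 stood well above PEO1 replicate 1. The log2 fold change was -1.22 ± 0.25 (SE), with an adjusted p of 0.0136 in edgeR's test. Without PEO1 replicate 2 it was -0.71, with an adjusted p of 0.18. MARS shares 68 bases of exon with DDIT3 on the opposite strand, and the kit does not mark strand.

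SARS (chr1:109756515-109780804) charges the serine tRNAs and the tRNA that takes up selenocysteine. Its level was 199 and 188 CPM in ABTr1, 175 and 220 CPM in ABTr2, 149 and 279 CPM in ABTr3 and 187 and 226 CPM in ABTr4, against 262 and 620 CPM in PEO1. ABTr3 replicate 2 exceeded PEO1 replicate 1, so the groups overlapped. The log2 fold change was -1.12 ± 0.32 (SE), with an adjusted p of 0.0449 in edgeR's test and 0.00427 with the replicate block. It lost the call in 9 of 17 alternatives, and without PEO1 replicate 2 it was -0.38 with an adjusted p of 0.55.

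A further 3 cytosolic genes that fell belong to the multisynthetase complex, as MARS does. LARS (chr5:145492589-145562294), which charges leucine tRNAs and is known as a leucine sensor upstream of mTORC1, had 167 and 141 CPM in ABTr1, 171 and 117 CPM in ABTr2, 185 and 192 CPM in ABTr3 and 219 and 145 CPM in ABTr4, against 284 and 385 CPM in PEO1. EPRS (chr1:220141942-220220000), a single protein with glutamate and proline activities, had 179 and 158 CPM in ABTr1, 219 and 191 CPM in ABTr2, 180 and 216 CPM in ABTr3 and 210 and 160 CPM in ABTr4, against 272 and 431 CPM in PEO1. RARS (chr5:167913463-167946309), the arginine enzyme, had 75.9 and 80.9 CPM in ABTr1, 108 and 80.2 CPM in ABTr2, 87.0 and 93.7 CPM in ABTr3 and 119 and 85.1 CPM in ABTr4, against 164 and 166 CPM in PEO1. For each of these genes, every clone library was below both PEO1 libraries, and the PEO1 pair was close together for RARS alone. The log2 fold changes were -1.01 ± 0.22 for LARS, -0.90 ± 0.21 for EPRS and -0.86 ± 0.19 for RARS (SE), with adjusted p of 0.0186, 0.0238 and 0.0171 in edgeR's test. Without PEO1 replicate 2 they were -0.78, -0.53 and -0.85, with adjusted p of 0.18, 0.27 and 0.11.

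Of the 8 members of the complex, 4 fell and 4 did not pass, with a median log2 fold change of -0.47. DARS, IARS, KARS and QARS were the ones that did not pass, and they charge aspartate, isoleucine, lysine and glutamine. DARS had 190.4 and 199.95 CPM in ABTr1, 199.94 and 265 CPM in ABTr2, 145 and 170 CPM in ABTr3 and 181 and 157 CPM in ABTr4, against 143 and 144 CPM in PEO1. It was the 1 member with every clone library above both PEO1 libraries, although ABTr3 replicate 1 exceeded the higher PEO1 library by very little. Its log2 fold change was 0.38 ± 0.19 (SE), with an adjusted p of 0.22 in edgeR's test, and it shares 114 bases of exon with an opposite-strand transcript. IARS lay at 249 to 422 CPM in the clones, against 281 and 310 CPM in PEO1. QARS lay at 107 to 156 CPM in the clones, against 134 and 131 CPM in PEO1.

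WARS charges tryptophan tRNAs and is known to be induced by interferon gamma. Its level was 118 and 164 CPM in ABTr1, 130 and 251 CPM in ABTr2, 94.0 and 217 CPM in ABTr3 and 116 and 187 CPM in ABTr4, against 138 and 554 CPM in PEO1. PEO1 replicate 1 lay inside the range of the clones, and replicate 2 lay above all of them. The log2 fold change was -1.13 ± 0.48 (SE), with an adjusted p of 0.15 in edgeR's test and 0.0116 with the replicate block, and without PEO1 replicate 2 it was 0.19. Of 7 other interferon gamma response genes, 2 fell (CIITA and IRF1) and 0 rose, with a median log2 fold change of -0.51. The signs were mixed, with 4 of the 7 negative and the others positive, up to 0.79. CIITA, the master regulator of class II antigen presentation, was at 0.413 to 2.42 CPM in the clones, against 6.596 and 7.82 CPM in PEO1, and its log2 fold change was -2.74. IRF1, an interferon-induced transcription factor, was at 20.5 to 60.6 CPM in the clones, against 79.2 and 142 CPM in PEO1, with a log2 fold change of -1.51.

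Another 4 cytosolic enzymes passed with the replicate block alone. GARS, the glycine enzyme of both compartments, had 136 and 100.3 CPM in ABTr1, 139 and 132 CPM in ABTr2, 159.6 and 212 CPM in ABTr3 and 152 and 134 CPM in ABTr4, against 162 and 378 CPM in PEO1. Its log2 fold change of -0.91 ± 0.28 (SE) had an adjusted p of 0.0619 in edgeR's test and 0.0229 with the block. YARS, the tyrosine enzyme, had 117 and 116 CPM in ABTr1, 120.3 and 109.9 CPM in ABTr2, 109 and 162 CPM in ABTr3 and 138 and 137 CPM in ABTr4, against 144 and 242 CPM in PEO1, and its log2 fold change was -0.62 ± 0.23 (SE). In both cases the clones overlapped PEO1 replicate 1 and lay below PEO1 replicate 2. HARS, the histidine enzyme, ran the other way within PEO1, with 53.1 and 49.4 CPM in ABTr1, 85.8 and 59.7 CPM in ABTr2, 74.4 and 61.2 CPM in ABTr3 and 87.7 and 53.9 CPM in ABTr4, against 127 and 67.1 CPM in PEO1. Clone libraries of replicate 1 reached above PEO1 replicate 2, and within each replicate number every clone was below PEO1. FARSA, the alpha subunit of the phenylalanine enzyme, had 80.9 and 69.2 CPM in ABTr1, 123 and 65.3 CPM in ABTr2, 124 and 95.2 CPM in ABTr3 and 139 and 72.7 CPM in ABTr4, against 149 and 128 CPM in PEO1. Its partner subunit FARSB had 64.0 and 36.4 CPM in ABTr1, 93.0 and 48.1 CPM in ABTr2, 81.5 and 68.4 CPM in ABTr3 and 114 and 56.5 CPM in ABTr4, against 108 and 64.0 CPM in PEO1. Clones and PEO1 overlapped for both subunits, with ABTr1 lowest in replicate 1. The log2 fold changes of the pair of subunits were -0.54 for FARSA and -0.32 for FARSB.

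AARS, the alanine enzyme, differed in direction between the replicates. It had 373 and 336 CPM in ABTr1, 381 and 367 CPM in ABTr2, 320.1 and 506 CPM in ABTr3 and 423 and 412 CPM in ABTr4, against 264 and 632 CPM in PEO1. All clone libraries lay between the PEO1 libraries. Its log2 fold change was -0.21 ± 0.31 (SE), with an adjusted p of 0.70 in edgeR's test, and it was 0.55 without PEO1 replicate 2 and 0.046 on plain library totals. TARS, the threonine enzyme, had the highest level per kb of any member ranked, at 134 CPM per kb in the clones and 163 CPM per kb in PEO1. TARS had 298 and 252 CPM in ABTr1, 669 and 416 CPM in ABTr2, 352 and 379 CPM in ABTr3 and 632 and 392 CPM in ABTr4, against 478 and 554 CPM in PEO1, so that the clones lay on both sides of PEO1. KARS, the lysine enzyme of both compartments, had 137 and 122 CPM in ABTr1, 258 and 172 CPM in ABTr2, 226 and 189.9 CPM in ABTr3 and 291 and 170.5 CPM in ABTr4, against 222 and 184 CPM in PEO1, again on both sides. CARS, the cysteine enzyme, followed the replicate number instead of the group, at 44.3 to 74.2 CPM in replicate 1 and 82.6 to 93.2 CPM in replicate 2 of the clones, against 46.5 and 93.7 CPM in PEO1. TARSL2, a paralog of TARS, was the lowest of the 35 members ranked per kb. It had 7.58 and 7.44 CPM in ABTr1, 8.38 and 5.22 CPM in ABTr2, 9.65 and 6.91 CPM in ABTr3 and 10.05 and 7.14 CPM in ABTr4, against 7.56 and 4.29 CPM in PEO1, which lay within or just below the range of the clones, with a log2 fold change of 0.39 and an adjusted p of 0.47 in edgeR's test. VARS, the valine enzyme, ranged from 44.8 to 149 CPM in the clones, against 163 and 85.4 CPM in PEO1, and because VARS and VARS2 are listed on chromosome 6 and on alternative copies of that region, their counts are uncertain and both were left out of the ranks per kb.

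Among the mitochondrial enzymes, WARS2 (chr1:119573839-119683295), the tryptophan enzyme, had 10.9 and 14.9 CPM in ABTr1, 16.4 and 16.5 CPM in ABTr2, 15.5 and 15.8 CPM in ABTr3 and 14.4 and 17.1 CPM in ABTr4, against 30.3 and 29.0 CPM in PEO1. IARS2 (chr1:220267455-220321383), the isoleucine enzyme, had 111 and 109 CPM in ABTr1, 121 and 115 CPM in ABTr2, 90.1 and 106 CPM in ABTr3 and 115 and 89.8 CPM in ABTr4, against 182 and 171 CPM in PEO1. Neither gene overlapped between clones and PEO1, and in contrast to most cytosolic members that fell, the PEO1 libraries were close to each other. The log2 fold changes were -0.97 ± 0.19 (SE) for WARS2 and -0.73 ± 0.17 (SE) for IARS2, with adjusted p of 0.0105 and 0.0204 in edgeR's test. Without PEO1 replicate 2 they were -1.004 and -0.77, with adjusted p of 0.0646 and 0.10.

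The mitochondrial genes that passed with the replicate block alone included MARS2, CARS2 and HARS2, for methionine, cysteine and histidine. MARS2 had 8.68 and 5.35 CPM in ABTr1, 18.4 and 6.09 CPM in ABTr2, 17.8 and 13.1 CPM in ABTr3 and 23.3 and 8.41 CPM in ABTr4, against 23.8 and 18.7 CPM in PEO1, and each clone was below PEO1 in the same replicate. CARS2, the highest mitochondrial member per kb, had 75.2 and 57.9 CPM in ABTr1, 123 and 112 CPM in ABTr2, 115 and 105 CPM in ABTr3 and 95.3 and 69.8 CPM in ABTr4, against 145 and 121 CPM in PEO1. ABTr1 was the lowest clone for CARS2 in both replicates. HARS2 had 31.0 and 36.7 CPM in ABTr1, 35.8 and 34.7 CPM in ABTr2, 34.7 and 40.02 CPM in ABTr3 and 40.9 and 38.6 CPM in ABTr4, against 48.5 and 49.4 CPM in PEO1, with no overlap between groups. Their log2 fold changes were -0.82 ± 0.45 for MARS2, -0.53 ± 0.19 for CARS2 and -0.42 ± 0.17 for HARS2 (SE), with adjusted p of 0.25, 0.0953 and 0.12 in edgeR's test, and 0.0164, 0.0114 and 0.0437 with the block.

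HARS and HARS2 lie head to head and share 302 bases of exon on opposite strands, so the reads of that stretch cannot be assigned without strand. The remaining 10 mitochondrial members passed in neither fit of the mean contrast. AARS2, the alanine enzyme, had the largest positive log2 fold change of all members, 0.44 ± 0.32 (SE), with an adjusted p of 0.396 in edgeR's test. It had 26.3 and 27.3 CPM in ABTr1, 28.3 and 15.5 CPM in ABTr2, 34.3 and 24.1 CPM in ABTr3 and 37.8 and 29.99 CPM in ABTr4, against 26.7 and 14.01 CPM in PEO1, and the groups overlapped. NARS2, the mitochondrial counterpart of NARS, had 50.6 and 35.6 CPM in ABTr1, 50.7 and 33.9 CPM in ABTr2, 45.1 and 44.1 CPM in ABTr3 and 56.4 and 38.9 CPM in ABTr4, against 63.7 and 34.4 CPM in PEO1. Clones and PEO1 overlapped, and its log2 fold change was -0.14 ± 0.29 (SE). SARS2, PARS2, TARS2, LARS2, EARS2, YARS2, VARS2 and RARS2, which charge serine, proline, threonine, leucine, glutamate, tyrosine, valine and arginine, had log2 fold changes between -0.62 (SARS2) and 0.33 (RARS2).

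In 8 of the 37 members, every clone library was below both PEO1 libraries (NARS, MARS, LARS, EPRS, RARS, WARS2, IARS2 and HARS2), and this held for 12.5% of all genes tested. The opposite held for 1 member (DARS) and for 14.5% of all genes tested. By catalytic class, which sorts the enzymes by the fold of their active site, 6 of 19 class I and 2 of 18 class II members fell, with medians of -0.53 and -0.33 on the log2 scale. The difference between the classes was not tested.

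Summed over the cytosolic members, the level was 3418 ± 318 CPM in the clones (SD, n = 4 clones), against 4089 and 6038 CPM in the PEO1 libraries, a ratio of 0.675. The mitochondrial members summed to 635 ± 37.8 CPM in the clones (SD, n = 4 clones), against 896 and 703 CPM in PEO1, a ratio of 0.795. Within replicate 1 the ratio of clones to PEO1 was 0.863 for the cytosolic and 0.747 for the mitochondrial sum, and within replicate 2 it was 0.548 and 0.856. Scaled to plain library totals, the ratios were 0.797 and 0.931, and that scaling moved the median log2 fold change of all genes to 0.25.

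**Figure D3:**
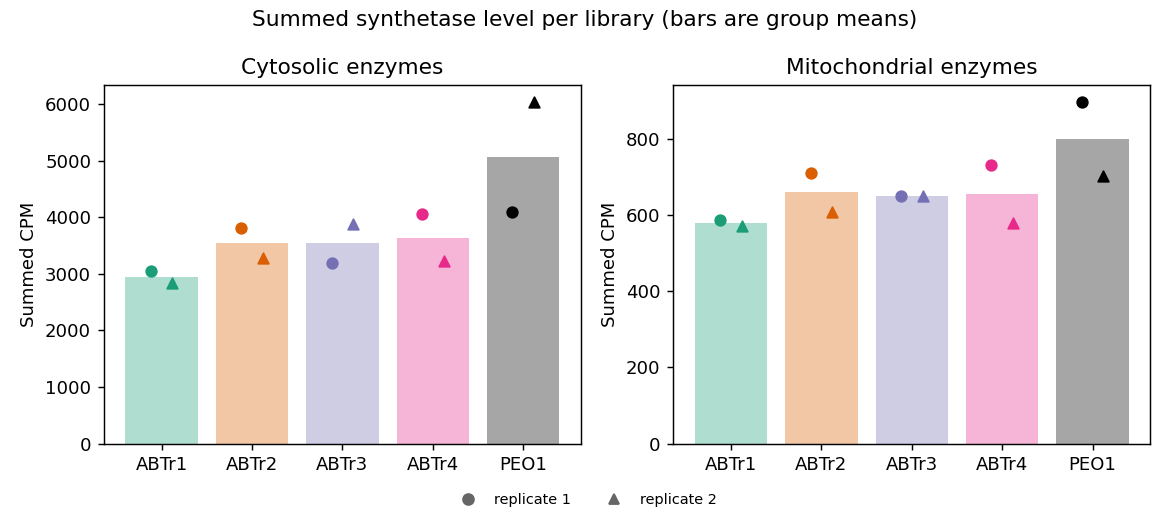
Summed CPM of the cytosolic (left) and mitochondrial (right) members in each library, with bars for the mean of the 2 libraries of a group. The cytosolic sum reached 6038 CPM in PEO1 replicate 2 and 4089 CPM in PEO1 replicate 1, and in the mitochondrial sum PEO1 replicate 1 was the higher of the pair, at 896 against 703 CPM.

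For 15 amino acids the table holds both a cytosolic and a mitochondrial enzyme that could be compared as a ratio within a library, which is free of the scaling between libraries. The ratio of NARS to NARS2 was 2.33 to 3.77 in the clone libraries, against 4.45 and 11.9 in PEO1. That of RARS to RARS2 was 0.865 to 1.96 in the clones, against 3.16 and 2.75 in PEO1. In these 2 pairs the ratio was lower in every clone library than in both PEO1 libraries, and for IARS and IARS2 it was higher in every clone library. The mean log2 ratio was lower in the clones for 11 of the 15 pairs and higher for 4, with EPRS entering both the glutamate and the proline pair. The direction depended on the replicate in the sums per kb, taken without VARS and VARS2. There the cytosolic to mitochondrial ratio of the clones was 1.15 times that of PEO1 within replicate 1 and 0.652 times within replicate 2.

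Each clone was also set against PEO1 alone, and these comparisons share the PEO1 libraries. In ABTr1, 5 members fell (NARS, MARS, RARS, WARS2 and CARS2), while 4.29% of all genes tested fell. NARS was the 1 member that fell in ABTr2, in ABTr3 and in ABTr4, where 2.81%, 3.89% and 5.25% of all genes tested fell. Its log2 fold changes were -1.53 ± 0.28 in ABTr1, -1.50 ± 0.28 in ABTr2, -1.16 ± 0.27 in ABTr3 and -1.35 ± 0.27 in ABTr4 (SE), with adjusted p of 0.0154, 0.0201, 0.04005 and 0.0197 in edgeR's test. MARS2 in ABTr1, at 8.68 and 5.35 CPM against 23.8 and 18.7 CPM in PEO1, had a log2 fold change of -1.60 without passing. Leaving out PEO1 replicate 2 or either library of the clone tested left 0 members called in each of the 4 comparisons, and the counts with each library left out ranged from 0 to 5 in ABTr1, 0 to 4 in ABTr2, 0 to 3 in ABTr3 and 0 to 5 in ABTr4.

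With the replicate block, 18 members fell in ABTr1, against 14.5% of all genes. In ABTr2, 8 members fell and DARS rose, against 10.8% of all genes lower and 11.3% higher. In ABTr3, 9 members fell, against 11.6% of all genes. In ABTr4, 11 members fell and AARS2 rose, against 13.9% of all genes lower and 13.1% higher. In this fit 7 members fell in all 4 clones (NARS, MARS, SARS, LARS, RARS, WARS2 and IARS2), and another 7 were called in ABTr1 alone (TARS, KARS, FARSA, FARSB, HARS, GARS and MARS2). The log2 fold change was negative in each of the 4 clones for 24 members. How many of all genes tested showed these patterns over the 4 clones was not counted. Agreement between clones is also not independent, because the comparisons share the PEO1 libraries.

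ABTr1 had the most negative of the 4 log2 fold changes for 24 of the 37 members, and its level was below the mean of the other 3 clones for 32 of 37. Without the block, 8078 of the 16490 genes tested were below that mean in ABTr1. No member passed in the test of ABTr1 against the other 3 clones, with or without the replicate block, and 0.691% of all genes were lower there with the block. At an unadjusted p under 0.05, 3 members were lower in ABTr1 and 0 higher without the block, and 7 were lower and 1 (CARS) higher with it. TARS, KARS, HARS and YARS2 were lower in both ABTr1 libraries than in any library of the other clones. How many of all genes tested had this order, or had their most negative log2 fold change in ABTr1, was not counted. In the test of any difference among the 4 clones, 0 of 37 members passed in edgeR's test, 1 had an unadjusted p under 0.05 (CARS2), and 0.00606% of all genes passed. With the block, 0 members passed and 5 had an unadjusted p under 0.05, against 0.843% of all genes passing, and DESeq2 and limma-voom called 0 members.

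The PEO1 libraries differed from each other in several cytosolic members. The ratio of PEO1 replicate 2 to replicate 1 was 4.00 for WARS, 2.39 for AARS, 2.36 for SARS, 2.33 for GARS, 2.02 for CARS, 1.85 for MARS, 1.68 for YARS and 1.58 for EPRS. These 8 of the 21 cytosolic members were above 1.5, against 1 of the 16 mitochondrial members (PARS2, at 1.92). The median ratio was 1.16 over cytosolic members, 0.729 over mitochondrial members and 0.998 over all genes tested. Within replicate 1 the clones differed from PEO1 by -1.05 for NARS, -0.77 for MARS, -0.57 for SARS and -0.15 for GARS on the log2 scale, and within replicate 2 by -1.69, -1.55, -1.45 and -1.44. For WARS2 the differences were -1.10 and -0.85, and for IARS2 -0.74 and -0.71. In all, 24 members were lower in the clones within both replicate numbers, 4 were higher in both and 9 differed in sign. Of the 16490 genes tested, 5919 were lower in both, 6375 were higher in both and 4196 differed in sign.

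**Figure D4:**
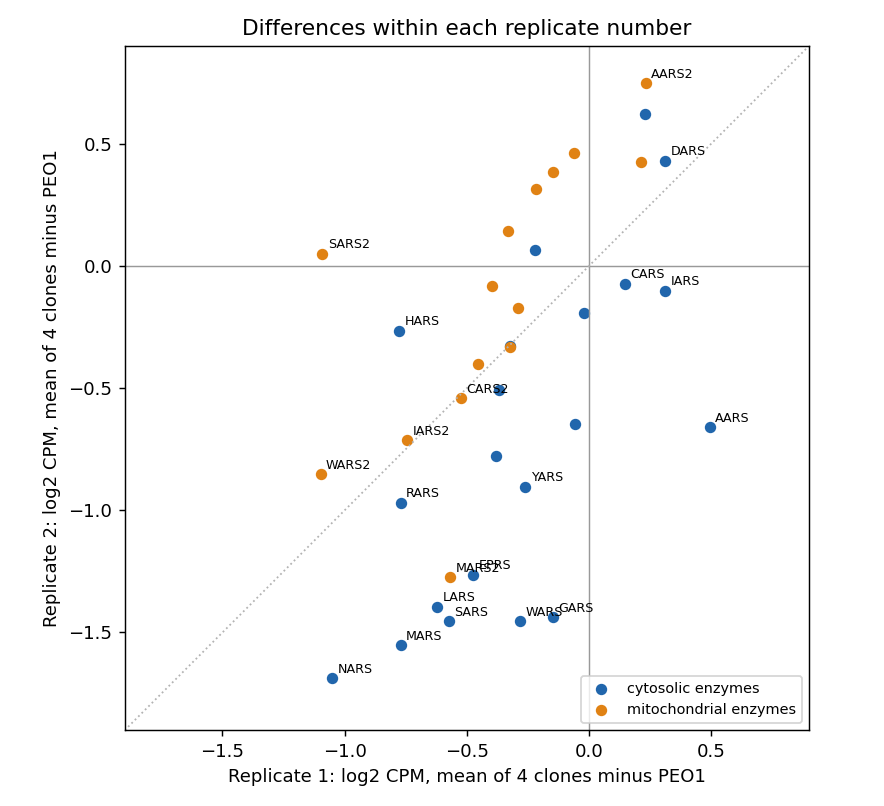
Difference between the mean of the 4 clones and PEO1 in log2 CPM, within replicate 1 (horizontal axis) and within replicate 2 (vertical axis), for 36 of the 37 members, with the dotted line at equal values. NARS is at -1.05 and -1.69, RARS and IARS2 are near the line, and AARS is at 0.49 and -0.66.

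The genes of amino acid supply under ATF4, the transcription factor that raises synthetase and transporter genes when amino acids are short, moved between the same libraries. Of 24 such genes, 13 fell in the clones and 0 rose, 18 fell with the replicate block, and the median log2 fold change was -1.34. Their summed level was 2118 to 3236 CPM in the clone libraries, against 4831 CPM in PEO1 replicate 1 and 11593 CPM in replicate 2. ASNS, which makes the asparagine that NARS uses, was at 20.03 to 104 CPM in the clones, against 82.6 and 486 CPM in PEO1, with a log2 fold change of -2.65 ± 0.51 (SE). The amino acid transporter genes SLC7A5, SLC3A2 and SLC38A2 fell, with log2 fold changes of -2.78, -2.22 and -1.69. ATF4 itself was at 142 to 280.3 CPM in the clones, against 267 and 228 CPM in PEO1, with a log2 fold change of -0.34 and an adjusted p of 0.29 in edgeR's test. The part of these genes' common difference in the synthetase results was not tested.

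Partner genes of tRNA charging encode scaffold subunits of the complex, enzymes that convert or correct a charged tRNA (amidation, formylation, editing, selenocysteine synthesis) and the tRNA exporter XPOT, and 11 of 12 present could be tested. In the mean contrast 0 of the 11 passed in edgeR's test and 1 had an unadjusted p under 0.05, with a median log2 fold change of -0.13, and with the replicate block 1 fell. That gene was XPOT, which carries tRNAs out of the nucleus, at 219 to 375 CPM in the clones, against 317 and 534 CPM in PEO1, with an adjusted p of 0.0212 with the block. The scaffold subunits of the multisynthetase complex AIMP1, AIMP2 and EEF1E1 had log2 fold changes of -0.38, -0.45 and -0.50, with adjusted p of 0.18, 0.18 and 0.25 in edgeR's test.

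Some synthetase promoters hold the letters TGATGNAA, the core of the C/EBP-ATF response element to which ATF4 is known to bind. RefSeq promoters (build GRCh38.p14), from 250 bases before to 50 bases after a start site, were found for 29 of the 37 members. Of all 37, 19 were looked up through a newer symbol. The motif, searched on both strands as TGATGNAA and TTNCATCA, was present in 8 of the 29, or 27.6%, against 3.62% of all 35116 promoters and 4.46% of 27305 genes. The 8 stretches are shown because several of these genes also differ in level between the PEO1 libraries. Each is 30 bases of the gene's own strand, with the motif in capitals.
NARS: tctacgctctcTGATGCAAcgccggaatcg
MARS: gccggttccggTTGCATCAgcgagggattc
GARS: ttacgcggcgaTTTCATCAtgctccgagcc
TARS: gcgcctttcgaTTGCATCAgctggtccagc
AARS: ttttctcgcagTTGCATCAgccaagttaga
CARS: cggggcggcggTTGCATCAgattctaggaa
IARS: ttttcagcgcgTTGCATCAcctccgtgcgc
YARS2: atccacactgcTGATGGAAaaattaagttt

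The NARS stretch lies at chr18:57621804-57621833 on the minus strand of GRCh38.p14, with the motif 15 to 22 bases after the start site. In MARS (chr12:57488053-57488082, plus strand) and CARS (chr11:3057407-3057436, minus strand) the motif spans the start site, beginning 4 and 2 bases before it, and in TARS (chr5:33440956-33440985, plus strand) it begins 3 bases after it. In IARS (chr9:92293692-92293721, minus strand) it begins 13 bases before the start site, and in GARS (chr7:30594834-30594863, plus strand), at the second of 2 start sites, 33 bases before. In AARS (chr16:70289675-70289704, minus strand) and YARS2 (chr12:32756076-32756105, minus strand) it lies farther off, 187 and 197 bases before the start site. In 6 of the 8 stretches the motif is the same, TTGCATCA or its reverse complement.

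Of the 7 cytosolic members with the motif, 2 fell in the clones (NARS and MARS), and of the 9 cytosolic members with a promoter sequence and no match, 3 fell. The ratio of PEO1 replicate 2 to replicate 1 was between 1.11 and 2.39 in all 7 cytosolic members with the motif. Its median there was 1.85. In the 9 without, it was between 0.531 and 4.00, with a median of 0.972. For YARS2, the mitochondrial member with the motif, it was 0.553. WARS and SARS, with ratios of 4.00 and 2.36, have no match in this window. A match is a description of the letters and not a measured binding site. Its part in the difference between the PEO1 libraries was not tested.

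Each member was also placed beside its neighbours on the chromosome, by the median log2 fold change of the tested genes within 5 Mb in hg19. Over the 37 members these medians ranged from -0.77 to 0.68, with a median of 0.07. Around NARS on chromosome 18, the 29 neighbours had a median of -0.77, 24 were negative, 12 fell and 1 rose. Around WARS2 on chromosome 1, the 36 neighbours had a median of -0.75 and 13 fell. The neighbours of HARS and HARS2 on chromosome 5 had a median of -0.76, with 109 negative and 30 that fell, and the 101 neighbours of LARS, also on chromosome 5, had a median of -0.48 and 15 fell. In this window no other member had neighbours with a median below -0.3. These 5 stayed below it within 2 Mb and 10 Mb, where MARS (-0.301 within 2 Mb) and SARS (-0.328 within 10 Mb) were also below.

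EPRS and IARS2, which lie next to each other on chromosome 1 and both fell, had neighbours with a median of 0.09, of which 3 fell and 3 rose, and the median was -0.094 within 2 Mb and -0.042 within 10 Mb. For MARS and SARS the neighbours' medians were -0.28 and -0.21. For RARS the median was -0.26 within 5 Mb, but 0.26 within 2 Mb and 0.025 within 10 Mb. At the other end, the neighbours of AARS and KARS on chromosome 16 had medians of 0.43 and 0.48, and those of YARS2 on chromosome 12 a median of 0.68, while these 3 members had log2 fold changes of -0.21, -0.09 and 0.07. The number of gene copies was not measured, and its part in the results was not tested.

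**Figure D5:**
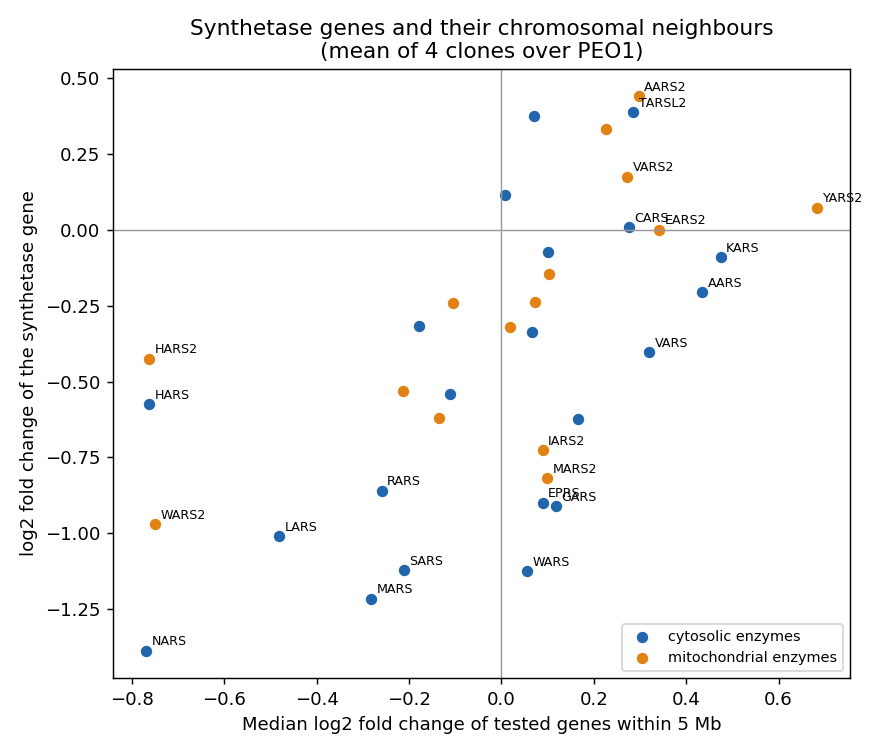
Log2 fold change (mean of 4 clones over PEO1) of 36 synthetase genes, on the vertical axis, against the median log2 fold change of the tested genes within 5 Mb, on the horizontal axis. NARS, WARS2, HARS and HARS2 have neighbours with medians between -0.77 and -0.75, while the neighbours of WARS, GARS, EPRS and IARS2 have medians between 0.06 and 0.12.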

How the data were processed

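The deposited file held whole-number counts per gene, which the authors made from polyadenylated RNA libraries of an unstranded kit. The tools were TopHat2 2.0.14 on hg19 and featureCounts 1.4.6, per the submitters' processing notes. Whether counting used strand or multiply mapped reads is not given in the sources used here, so that close paralogs (TARS and TARSL2), overlapping genes (YARS shares 248 bases with S100PBP, SARS2 189 with MRPS12) and genes on alternative sequences (VARS, VARS2) are uncertain. Descriptions number the clones in another order than library titles do, and titles were followed. The design text names 15 samples, of which the 10 given here were analysed.

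Genes kept by edgeR's expression filter (16490 of 25370) were scaled by TMM and tested with edgeR 4.0.16 (R 4.3.3), with 5 group means (5 residual degrees of freedom). P-values were adjusted by the Benjamini-Hochberg method over the whole table. The method was tested on simulated data. CPM values use TMM-scaled totals, and per-kb values divide them by the deposited exon length. Neighbours were taken from the deposited coordinates.

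Library numbers come from the labels. In all 10 pairs of groups, same-numbered libraries deviated together (r of 0.244 to 0.680, threshold 0.1), so values with the replicate block (4 residual degrees of freedom) are given beside results they change. Alternatives were RLE size factors, DESeq2 1.42.0, limma-voom (limma 3.58.1), no filter, the compared groups alone, the clone as the unit, other windows, each library left out and, chosen after seeing the data, plain library totals.

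Every member enters the counts, medians and sums, and 1 is not reported by itself here. Values per library are given for the other members that passed in any comparison, with or without the block, or that were added for their role (WARS, TARSL2, NARS2, AARS), and otherwise as ranges. For the other lists, up to 4 genes with the smallest adjusted p are named, with ASNS and ATF4, and PAX8 and the fibroblast genes were added after their values were seen. The members, lists and rules were chosen with earlier results of these data known.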

Additional observations from a re-analysis of the deposited data

Results flagged for a closer look

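Each of the 37 members was checked among the 8 clone libraries for a library far from the nearest of the others, and 2 were found, where chance gives about 1 in 20. WARS2 was at 10.9 CPM in ABTr1 replicate 1, below the next lowest clone library at 14.4 CPM. DARS was at 265 CPM in ABTr2 replicate 2, above the next highest at 199.95 CPM. No explanation was tested for either.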

How the results depend on the processing

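The 8 calls of the mean contrast became 17 with the replicate block and 5 on plain library totals, and ran from 1 (without PEO1 replicate 2) to 9 (without PEO1 replicate 1) when a library was left out. They were 5 without either ABTr1 library. For ABTr1 the 5 calls became 18 with the replicate block, 10 with DESeq2, 1 on plain totals, 0 with the compared groups alone, and 0 to 5 with a library left out (0 without either ABTr1 library or PEO1 replicate 2, 2 without either ABTr3 library, 3 without ABTr2 replicate 1 or either ABTr4 library). For ABTr2 the 1 call became 9 with the replicate block, 6 with DESeq2, 2 with limma-voom, 3 with no filter, 0 with the compared groups alone, and 0 to 4 with a library left out (0 without either ABTr2 library or PEO1 replicate 2, 4 without PEO1 replicate 1). For ABTr3 the 1 call became 9 with the replicate block, 2 with RLE size factors, 5 with DESeq2, 0 on plain totals or with the compared groups alone, and 0 to 3 with a library left out (3 without PEO1 replicate 1, 1 without either ABTr2 library, 0 without any other). For ABTr4 the 1 call became 12 with the replicate block, 5 with DESeq2, 2 with limma-voom, 0 with the compared groups alone, and 0 to 5 with a library left out (0 without either ABTr4 library or PEO1 replicate 2, 5 without PEO1 replicate 1). A clone left with 1 library was assumed to vary like the other groups.

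Of the genes that fell, NARS passed in all 17 alternatives, with log2 fold changes of -1.66 to -1.10 and adjusted p up to 0.042. MARS, LARS and WARS2 passed in 16, RARS in 15, EPRS and IARS2 in 12 and SARS in 8. On plain totals the summed ratios were 0.797 and 0.931. The 25 members chosen for values per library were refitted under each alternative, and the sign turned for 5 of them; the other members were not tallied. With a library left out, WARS ran from -1.85 (without PEO1 replicate 1) to 0.19 (without PEO1 replicate 2) and AARS from -0.74 to 0.55 in the same order. The opposite order gave FARSB -0.65 (without PEO1 replicate 2) to 0.074 (without PEO1 replicate 1), KARS -0.22 to 0.016 and NARS2 -0.52 to 0.33. On plain totals AARS was 0.046, KARS 0.14 and NARS2 0.076. None of these 5 genes passed in the mean contrast without the block, and the cause was not tested.

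With 2 libraries per group, the spread is estimated from few libraries, and the PEO1 pair enters every contrast with PEO1. Low members such as MARS2 and TARSL2 also carry more counting error.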
